A study of Mus musculus with 4 samples.

Results

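The genes described here are the heat shock proteins and the DnaJ (Hsp40) cochaperones of mouse hematopoietic progenitors. They were taken as every probe set whose single gene symbol in the array annotation starts with Hspa, Hspb, Hspd, Hspe, Hsph, Hsp90 or Dnaj, which gave 72 genes from 95 probe sets out of 19938 genes from 21789 probe sets with 1 symbol. There were 12 Hspa, 10 Hspb and 45 Dnaj genes, and the other 5 were Hspd1, Hspe1, Hsph1, Hsp90aa1 and Hsp90b1. The rule reads names only, so it also took in Hspbp1, Hspbap1 and Hspb11, which are not small heat shock proteins. The families themselves were chosen by earlier results from these 4 arrays, among them the lower Hspa1a signal in Bcl11a-/- GMPs, so the values of Hspa1a are given as a description. Hspa1b and Hsp90ab1 have no probe set under their symbol alone and were not analysed as genes, and 10 probe sets that carry a member's symbol together with another were left out of the counts.

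Hsp70 proteins hold unfolded stretches of other proteins in an ATP-driven cycle, DnaJ proteins bring the client and start ATP hydrolysis, and nucleotide exchange factors such as Hsph1 reset the cycle. Each compartment has its own set, and heat or other proteotoxic stress induces a subset of the cytosolic genes through heat shock factors, while unfolded protein in the endoplasmic reticulum (ER) induces the ER set through a separate response. In bone marrow, the ER set is known to be abundant in cells that make secreted or granule proteins.

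Donor-derived granulocyte-macrophage progenitors (GMPs) and multipotent progenitors (MPPs, sorted as CD150-negative LSK cells, the stem and early progenitor fraction) came from the BM of B6.SJL mice that were lethally irradiated with 1200 rad and reconstituted with fetal liver cells of WT or Bcl11a-/- fetuses. The allele lacks the first exon of Bcl11a, the labels place the sort 4 weeks after transfer (the methods also name a longer interval for such chimeras), and all samples carry B6.SJL as their genetic background, which the protocol names as the recipient strain. Cells were pooled by donor genotype, and how many mice made up a pool is not stated in the labels or methods. The paper states that the GMPs came from the same BM as the MPPs, so the arrays of a genotype are not independent observations of it. Each of the 4 conditions was measured on 1 array, so the differences could not be checked against replicates and carry neither a p-value nor an SD.

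Signals are log2 values after RMA with quantile normalization, a difference is Bcl11a-/- minus WT or MPP minus GMP on that scale, and differences over 2-fold, the threshold of the study, were counted. Levels of different probe sets are not comparable with each other, and in bulk samples fewer cells of a type and less RNA per cell cannot be told apart. All 10 GMP markers were lower in MPPs than in GMPs in both genotypes, and 8 of 9 measured MPP markers were higher in each. Bcl11a itself was at 8.60 in WT and 7.77 in Bcl11a-/- GMPs and at 9.89 in WT and 8.64 in Bcl11a-/- MPPs, and probes outside the first exon can still find transcript. Other lineages moved with genotype: erythroid markers were over 2-fold higher in Bcl11a-/- GMPs for 5 of 9 measured genes (mean signal 6.95 in WT and 8.19 in Bcl11a-/-), and B lineage markers were over 2-fold lower for 5 of 11 in Bcl11a-/- GMPs and for 11 of 11 in Bcl11a-/- MPPs (mean signal 7.99 in WT and 5.08 in Bcl11a-/- MPPs). Of the 10 GMP markers, 4 were over 2-fold lower in Bcl11a-/- than in WT MPPs. Their part in the chaperone differences was not tested.

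The promoter stretches below are shown because the inducible cytosolic set and the ER set differ in the letters upstream of their start sites. Whether these letters bear on the array values was not tested. Each is the 150 bases before the RefSeq start in GRCm38.p6, read 5′ to 3′ on the strand of the gene. In the first 3, capitals mark the heat shock pair GAANNTTC, the inverted repeat of the unit that heat shock factors bind, and in the others they mark the ends of the ER stress element, CCAAT and CCACG with 9 bases between them. Hspa1b is added because it shares a probe set with Hspa1a. Hsp90b1 carries its element on the opposite strand.
Hspa1a, chr17:34972157-34972306, minus strand: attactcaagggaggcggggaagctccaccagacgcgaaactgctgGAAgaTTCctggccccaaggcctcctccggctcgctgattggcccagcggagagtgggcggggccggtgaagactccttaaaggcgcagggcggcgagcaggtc
Hspa1b, chr17:34959239-34959388, minus strand: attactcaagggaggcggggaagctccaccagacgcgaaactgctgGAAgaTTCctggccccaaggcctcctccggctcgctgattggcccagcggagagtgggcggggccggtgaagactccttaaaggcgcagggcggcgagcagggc
Hspb1, chr5:135887769-135887918, plus strand, 2 pairs: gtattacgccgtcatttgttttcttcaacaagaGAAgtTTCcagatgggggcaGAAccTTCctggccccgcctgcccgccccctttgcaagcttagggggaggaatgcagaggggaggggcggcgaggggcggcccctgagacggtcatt
Hspa5, chr2:34771940-34772089, plus strand: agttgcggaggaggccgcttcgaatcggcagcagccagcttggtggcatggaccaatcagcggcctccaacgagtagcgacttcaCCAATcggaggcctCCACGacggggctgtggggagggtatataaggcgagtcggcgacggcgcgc
Hsp90b1, chr10:86705445-86705594, minus strand: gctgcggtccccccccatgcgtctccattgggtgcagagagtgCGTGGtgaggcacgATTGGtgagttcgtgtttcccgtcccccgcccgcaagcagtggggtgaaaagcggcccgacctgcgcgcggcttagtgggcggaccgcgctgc
Dnajc3, chr14:118937782-118937931, plus strand: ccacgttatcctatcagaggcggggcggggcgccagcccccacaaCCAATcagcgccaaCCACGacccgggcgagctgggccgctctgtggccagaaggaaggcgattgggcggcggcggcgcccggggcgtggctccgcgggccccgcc

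The Hspa1a and Hspa1b stretches are identical at 149 of 150 bases. Over windows from 250 bases before to 50 after the start, searched on both strands, the heat shock pair was found in 5 of the 7 stress-inducible genes with a promoter in the table (Dnaja1, Hspa1a, Hspb1, Hspb8 and Hsph1), in 1 of 11 constitutive genes (Dnajb6) and in 0 of 9 ER genes. Over all members with a promoter, 13 of 59 held the pair. These included 2 of the 5 mitochondrial members (Hspd1 and Hspe1). Dnaja4, Dnajc27, Dnajc5g, Hspb3 and Hspb6, in neither the inducible nor the constitutive list, held it as well. Of all 27025 promoters in the table, 9.04% held it. The longer form, the pair with a GAA unit added after any pair of bases, necessarily contains the pair and was found in Dnajb6, Hsph1, Hspd1 and Hspe1, against 0.662% of all promoters, and Hspd1 and Hspe1 share their promoter region. The ER stress element was found in 3 of 9 ER genes, those printed, in 4 of 16 ER partner genes (Calr, Canx, Creld2 and Pdia6), in 0 of 30 cytosolic or nuclear members and in 0.137% of all promoters. A match is a description of the letters only, and 59 of the 72 members had a promoter in the table.

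Between WT and Bcl11a-/- GMPs, Hspa1a was the single member beyond 2-fold. Hspa1a encodes the main stress-inducible cytosolic Hsp70. Its signal was 9.01 (WT) and 7.11 (Bcl11a-/-) in GMPs and 8.69 (WT) and 7.29 (Bcl11a-/-) in MPPs. Both Bcl11a-/- arrays were below both WT arrays, and the 2 populations of a genotype lay closer to each other than the genotypes did. The 2 populations of a genotype share their BM, so they do not count as separate observations of it. The genotype difference was −1.89 in GMPs (3.71-fold lower) and −1.40 in MPPs (2.65-fold lower). Among all 19938 genes ordered from the lowest difference up, Hspa1a was at place 7 in GMPs and at place 145 in MPPs.

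The probe set annotated to both Hspa1a and Hspa1b gave a like picture. It read 9.93 (WT) and 8.07 (Bcl11a-/-) in GMPs and 8.77 (WT) and 7.33 (Bcl11a-/-) in MPPs, which is −1.86 with genotype in GMPs and −1.44 in MPPs. Unlike the Hspa1a probe set it was also lower in MPPs than in GMPs, by −1.16 in WT and −0.73 in Bcl11a-/- cells, against −0.31 and 0.17 for Hspa1a alone. How far the probes of either probe set read the other, near identical copy was not tested.

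**Figure D1:**
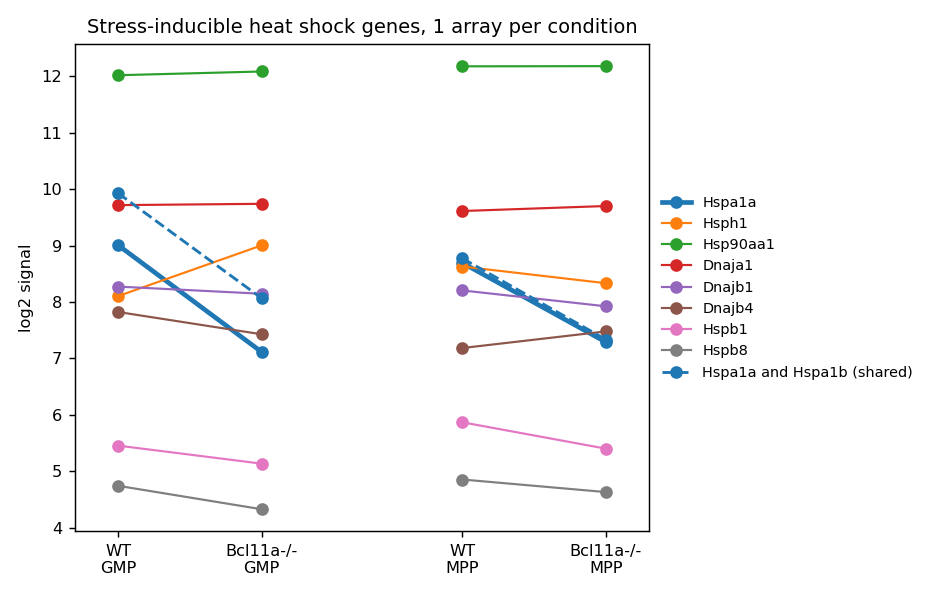
Log2 signal (y axis) of the stress-inducible heat shock genes on the 4 arrays (x axis), 1 point per array and gene, with lines joining WT and Bcl11a-/- arrays of a population; the dashed line is the probe set shared by Hspa1a and Hspa1b. Hspa1a was lower in both Bcl11a-/- populations (9.01 to 7.11 in GMPs and 8.69 to 7.29 in MPPs). As means of their probe sets, Hsp90aa1 and Dnaja1 stayed within 0.1 log2 units of WT. For Dnaja1 the mean joins probe sets of opposite sign in GMPs (−0.185 and 0.231). In MPPs the same probe sets differed by 0.019 and 0.158.

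The other inducible genes did not share the size of the Hspa1a difference. Hsph1 encodes the Hsp110 exchange factor that cooperates with Hsp70. It read 8.10 (WT) and 9.0 (Bcl11a-/-) in GMPs and 8.63 (WT) and 8.33 (Bcl11a-/-) in MPPs. Thus it was 0.90 higher in Bcl11a-/- GMPs (1.87-fold), just inside the threshold and opposite in sign to Hspa1a on the same arrays, and differed by −0.30 in MPPs. Dnajb1, the inducible cytosolic DnaJ partner of Hsp70, read 8.27 and 8.15 in WT and Bcl11a-/- GMPs and 8.20 and 7.92 in WT and Bcl11a-/- MPPs. These values span less than the genotype difference of Hspa1a in either population. Dnajb4, a related cytosolic DnaJ, read 7.82, 7.43, 7.18 and 7.48 in the same order, lower with the mutation in GMPs by −0.40 and higher in MPPs by 0.30.

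Hsp90aa1, the inducible cytosolic Hsp90, was measured by 3 probe sets that agreed closely, with differences of 0.06 to 0.08 in GMPs and −0.01 to 0.02 in MPPs. Dnaja1, a farnesylated DnaJ of the cytosol, had 2 probe sets with differences of −0.19 and 0.23 in GMPs and 0.02 and 0.16 in MPPs. The small heat shock proteins hold unfolded protein without ATP. The 2 inducible ones were lower in both mutant populations, Hspb1 by −0.32 in GMPs and −0.47 in MPPs (mean of 2 probe sets) and Hspb8 by −0.42 and −0.22, but Hspb8 was under 5 on all 4 arrays. None of the 7 measured small heat shock genes differed by over 2-fold in any comparison (0.281% to 5.82% of all genes did, by comparison and direction). Across the 8 measured inducible genes, 3 were higher and 5 lower in Bcl11a-/- GMPs with a median of −0.22, and 3 were higher and 5 lower in Bcl11a-/- MPPs with a median of −0.25. The medians over all genes were 0.01 and 0.05. With signals under 5 set to 5, the inducible medians were −0.06 in GMPs and −0.14 in MPPs, a setting that among the inducible genes alters Hspb8 alone.

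Genes that act on or with the inducible set were within 2-fold by genotype, and more of them were lower than WT in Bcl11a-/- MPPs than in Bcl11a-/- GMPs. The 34 measured partner genes of the cytosol were heat shock factors, Hsp70 and Hsp90 cochaperones and subunits of the CCT chaperonin. Hsf1 was not measured under its symbol alone and is not among them. In Bcl11a-/- GMPs or MPPs, 0 of the 34 were over 2-fold higher or lower, with medians of 0.05 and −0.23 (−0.11 in MPPs after lowess centring). Among all genes such differences were rare, at 0.361% higher and 0.281% lower in GMPs and 0.908% and 2.02% in MPPs. In GMPs 11 of the 34 were lower in Bcl11a-/- cells, and in MPPs 23 were (11 and 22 after lowess centring). Of all 19938 genes, 9526 were lower in Bcl11a-/- GMPs and 8809 in Bcl11a-/- MPPs. The following partners were picked after their values were seen. The lowest in MPPs was Hsbp1, which binds heat shock factor 1, at −0.95 (1.93-fold), followed by the CCT subunit Cct3 at −0.90, Cct5 at −0.78 and the Hsp90 cochaperone Ptges3 at −0.75. Their GMP differences were 0.03, −0.01, 0.12 and 0.02. Bag3, an Hsp70 exchange factor that heat shock factors induce, differed by 0.07 in GMPs and −0.07 in MPPs. Chordc1, an inducible Hsp90 cochaperone whose promoter also held the longer heat shock form, differed by 0.29 and 0.13. Cryab, a small heat shock protein, was the lowest of the 34 in GMPs at −0.73 and was at −0.30 in MPPs. Immediate early genes, a group known to respond to handling of cells, were lower in Bcl11a-/- GMPs for 17 of 19 (median −0.41) and in Bcl11a-/- MPPs for 14 of 19 (median −0.24, and −0.13 after lowess centring), with 0 beyond 2-fold. Their part in the Hspa1a difference was not tested.

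The counts over all 72 members were small on these arrays. In GMPs, 0 members were over 2-fold higher in Bcl11a-/- cells (0.361% of all genes were) and 1 was lower, Hspa1a, which is 1.39% of the members against 0.281% of all genes. In MPPs, 1 member, Dnajb6, was higher (1.39% against 0.908%) and 3 were lower, Dnajc15, Hspa1a and Hspa9 (4.17% against 2.02%). The other 71 members in GMPs and 68 in MPPs were within 2-fold. Because the GMP contrast entered the choice of these families, nothing is read from its count. Nearest to the threshold outside it were Hsph1 at 0.90 and Hspb11 at −0.96 in GMPs, and Hspa2 at 0.78 and Dnajc9 at −0.95 in MPPs. Hspb11, which despite its name encodes a subunit of the ciliary transport machinery, and Hspa2, an Hsp70 best known from the testis, were named after their values were seen. Hspb11 read 6.92 (WT) and 5.96 (Bcl11a-/-) in GMPs and 6.33 (WT) and 6.21 (Bcl11a-/-) in MPPs, so that only the WT GMP array stood above the rest. Hspa2 read 7.01, 7.51, 6.52 and 7.30 in that order and was higher in Bcl11a-/- cells of both populations.

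**Figure D2:**
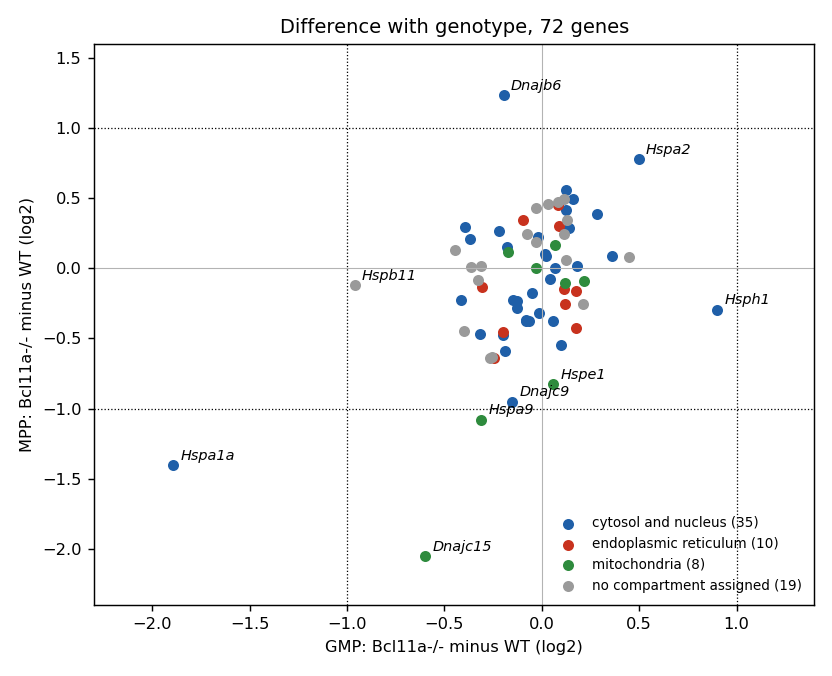
Genotype difference of the 72 member genes, Bcl11a-/- minus WT, in GMPs (x axis, log2) and in MPPs (y axis, log2), 1 point per gene coloured by compartment, with dotted lines at 2-fold. Hspa1a stood apart to the lower left (−1.89 and −1.40), Dnajc15 at the bottom (−2.05 in MPPs) and Dnajb6 at the top (1.24 in MPPs), while most members lay near 0 on both axes.

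Constitutive cytosolic and nuclear chaperones had a small negative median in both populations, with wider scatter in MPPs. Over the 14 measured, the median was −0.08 in GMPs and −0.27 in MPPs, with 4 higher and 10 lower in GMPs and 6 higher and 8 lower in MPPs. Among genes of high signal the whole MPP comparison ran low: the median difference of all genes with a mean signal from 9 to 11 was −0.16, against 0.11 for those from 3 to 5. After centring on a lowess curve against signal the constitutive median in MPPs was −0.15, and with the MPP arrays quantile normalized anew it was −0.08. In GMPs the inducible genes ranged from −1.89 (Hspa1a) to 0.90 (Hsph1) and the constitutive ones from −0.22 to 0.18. In MPPs the inducible genes ranged from −1.40 to 0.30 and the constitutive ones from −0.95 to 1.24. The lower end of the inducible range is Hspa1a in both populations, and its GMP value entered the choice of these families, so nothing is read from the ranges.

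Hspa8, the constitutive cytosolic counterpart of Hspa1a, differed by 0.02 to 0.25 in GMPs over its 3 probe sets and by −0.68 to −0.35 in MPPs. As gene means these were 11.34 (WT) and 11.44 (Bcl11a-/-) in GMPs and 11.36 (WT) and 10.81 (Bcl11a-/-) in MPPs, so only the Bcl11a-/- MPP array was low. The same array was the lowest for Dnajc9, a J protein that also binds histones (9.26, 9.11, 9.05 and 8.09). It was the lowest again for Dnaja2, a cytosolic DnaJ partner of Hspa8 (9.39, 9.20, 9.17 and 8.58), and for Hspbp1, an Hsp70 exchange factor (7.91, 7.71, 7.57 and 7.10). Their MPP differences were −0.95, −0.59 and −0.48, and their GMP differences lay between −0.20 and −0.15. Dnajc5, the cysteine string protein of secretory vesicles, ran the other way in MPPs at 0.26 and was at −0.22 in GMPs.

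Dnajb6, a DnaJ that restrains protein aggregation, was the member furthest above WT in Bcl11a-/- MPPs, but its probe sets did not agree. The probe set under its symbol alone read 6.89 (WT) and 6.70 (Bcl11a-/-) in GMPs and 6.64 (WT) and 7.88 (Bcl11a-/-) in MPPs, so the Bcl11a-/- MPP array alone was high, by 1.24 (2.36-fold) over WT MPPs. The annotation pairs it with 1 RefSeq mRNA. The 4 probe sets annotated to Dnajb6 together with Gm4247 list 4 RefSeq mRNAs each, and on them Bcl11a-/- cells were lower, by −0.58 to −0.44 in GMPs and −0.93 to −0.51 in MPPs. The direction for Dnajb6 in MPPs therefore depended on the probe set, and which transcripts each one reads was not tested.

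**Figure D3:**
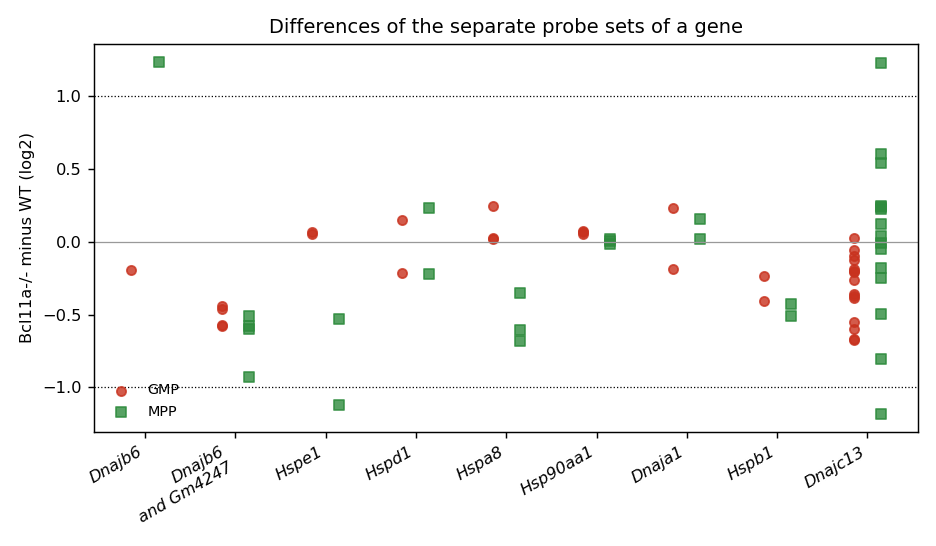
Genotype difference (y axis, Bcl11a-/- minus WT, log2) of each separate probe set of the genes on the x axis, circles for GMPs and squares for MPPs, with dotted lines at 2-fold. The Dnajb6 probe set lay at 1.24 in MPPs while the 4 shared with Gm4247 lay below 0, and the 15 probe sets of Dnajc13 spread from −1.18 to 1.23 in MPPs.

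Other genes with several probe sets varied in how well these agreed. Dnajc13, an endosomal J protein named after its values were seen, had 15 probe sets, of which 8 were higher and 7 lower in Bcl11a-/- MPPs (from −1.18 to 1.23), so its mean of 0.02 stands for no single transcript region. In GMPs 14 of the 15 were lower in Bcl11a-/- cells. Hspa8 probe sets that also carry small nucleolar RNA symbols differed by −0.53 in GMPs, below the 0.02 to 0.25 of those under Hspa8 alone. The 2 Dnajc3 probe sets hold identical values and count as 1 measurement.

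In mitochondria, Dnajc15 and Hspa9 were over 2-fold lower in Bcl11a-/- MPPs (2.02% of all genes were) and the rest of the 8 members were within 2-fold. Dnajc15 encodes a J protein of the inner membrane that works with the protein import motor. It read 10.34 (WT) and 9.74 (Bcl11a-/-) in GMPs and 9.45 (WT) and 7.40 (Bcl11a-/-) in MPPs. The Bcl11a-/- MPP array was the lowest by far, −2.05 from WT MPPs (4.16-fold, place 46 from the lowest among all genes), and the GMP difference of −0.60 had the same sign. Hspa9, the mitochondrial Hsp70 (mortalin), read 10.43, 10.12, 10.26 and 9.18 in the same order. Its MPP difference of −1.08 (2.11-fold) lay just past the threshold, was −0.94 after lowess centring and −0.83 with the 2 arrays quantile normalized anew, and its GMP difference was −0.31.

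The chaperonin of the matrix gave mixed values. Hspe1, the Hsp10 lid, differed by 0.05 and 0.06 in GMPs on its 2 probe sets and by −1.12 and −0.53 in MPPs. Hspd1, the Hsp60 barrel that it closes and that shares its promoter region, differed by −0.21 and 0.15 in GMPs on its 2 probe sets. In MPPs the same probe sets, in that order, differed by 0.23 and −0.22, so each changed sign. The MPP values of Hspe1 were thus both negative, while those of Hspd1 straddled 0. Dnaja3, the mitochondrial DnaJ of Hspa9, and Dnajc11, of the membrane organising complex, differed by 0.12 and 0.22 in GMPs and by −0.10 and −0.09 in MPPs. Dnajc19 and Dnajc30 lay between −0.17 and 0.16 in both. The median over the 8 genes was 0.01 in GMPs and −0.10 in MPPs (−0.05 after lowess centring), and over 12 mitochondrial partner genes (the proteases, nucleotide exchange factors and import motor subunits) −0.03 and −0.31, with 0 of the partners beyond 2-fold by genotype.

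The ER set was close to WT in both populations when genotypes were compared and differed more between populations. By genotype, all 10 members were within 2-fold, as were 19810 of all 19938 genes in GMPs and 19355 in MPPs. All genes, too, differed more between populations, where 19113 were within 2-fold in WT and 18308 in Bcl11a-/- cells. The ER median was 0.09 in GMPs and −0.15 in MPPs (0.02 with the MPP arrays quantile normalized anew). Of the 20 ER partner genes, 0 were beyond 2-fold in either population, with medians of 0.04 and −0.08 (−0.02 in MPPs after lowess centring). The ER member differences furthest from 0 with genotype were −0.64 for Dnajb14 and −0.46 for Dnajc10 in MPPs.

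Between populations, WT MPPs had 0 members over 2-fold higher than WT GMPs (1.33% of all genes were) and 4 lower, Dnajc3, Hspa5, Dnajc12 and Hspa13 (5.56% of the members against 2.80% of all genes). Bcl11a-/- MPPs had 1 member higher than Bcl11a-/- GMPs, Dnajb6 (1.39% against 2.36%; its 4 probe sets shared with Gm4247 were lower, by −1.17 to −0.14), and 7 lower, Dnajc15, Hspa5, Dnajc12, Dnajc3, Dnajb11, Hspe1 and Dnajc9 (9.72% against 5.82%). Of the 4 lower in WT cells, 3 were ER genes, as were 3 of the 7 in Bcl11a-/- cells. The nearest values to the threshold were −1.02 for Hspa13 and −0.94 for Dnajb11 in WT, and −1.02 for Dnajc9 and −0.94 for Hspa9 in Bcl11a-/- cells. After lowess centring the lower counts were 3 and 5, since Hspa13 was then at −0.96 in WT and Dnajc9 at −0.86 and Hspe1 at −0.72 in Bcl11a-/- cells.

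Hspa5 encodes BiP, the Hsp70 of the ER lumen. Its signal was 11.58 (WT) and 11.75 (Bcl11a-/-) in GMPs and 10.31 (WT) and 9.88 (Bcl11a-/-) in MPPs. Both MPP arrays were below both GMP arrays, by −1.27 in WT (2.42-fold) and −1.88 in Bcl11a-/- cells (3.68-fold). Dnajc3 encodes a lumenal J protein of BiP and read 10.26, 10.38, 8.89 and 8.75 in that order, −1.37 in WT and −1.63 in Bcl11a-/- cells. Dnajb11, another lumenal J protein of BiP, read 9.56, 9.68, 8.62 and 8.37, at −0.94 and −1.31. Hspa13, an Hsp70 relative of the microsomes that lacks the client-binding domain, read 7.96, 8.04, 6.94 and 7.39. For these 4 genes both MPP values were below both GMP values, and for each of them the GMP arrays of WT and Bcl11a-/- cells lay within 0.2 of each other.

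The remaining ER members were less far apart in WT cells. Hsp90b1, the ER Hsp90 (GRP94), read 11.55, 11.73, 11.19 and 11.03, so MPPs were lower by −0.36 in WT and −0.70 in Bcl11a-/- cells. Dnajb9, a J protein of ER-associated degradation, was at −0.44 and −0.27, and Dnajc10, an ER disulfide reductase with a J domain, at −0.09 and −0.35. For Hsp90b1 and Dnajb9, too, both MPP values were below both GMP values. The membrane-anchored members diverged, Dnajb14 at −0.06 and −0.45, Dnajb12 at 0.24 and 0.68 and Dnajc1 at 0.03 and 0.24. In all, 8 of the 10 were lower in MPPs in both genotypes, and the 2 higher in both were membrane proteins. The median was −0.40 in WT and −0.55 in Bcl11a-/- cells, against 0.06 and 0.10 over all genes, after lowess centring −0.24 and −0.45, and with the arrays of a pair quantile normalized anew −0.16 and −0.31.

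**Figure D4:**
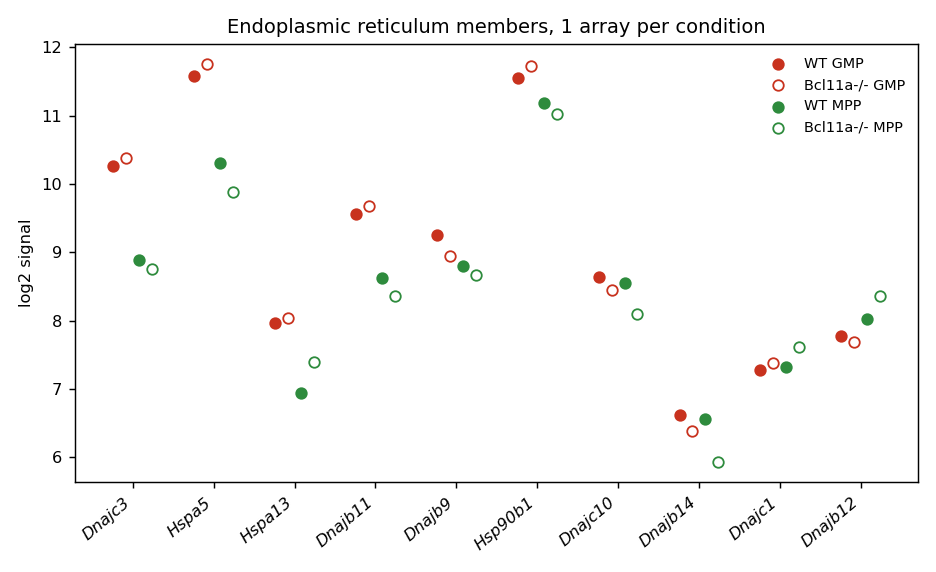
Log2 signal (y axis) of the 10 ER members (x axis, ordered by MPP minus GMP in WT) on each of the 4 arrays, filled for WT and open for Bcl11a-/-, red for GMPs and green for MPPs. For Dnajc3, Hspa5, Hspa13, Dnajb11, Hsp90b1 and Dnajb9 both GMP points lay above both MPP points, while Dnajb12 ran the other way. Levels of different genes are not comparable.

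The ER partner genes, which include ER stress factors and lectin chaperones besides partners of BiP, mostly showed the same direction. Of all 19938 genes, 8539 were lower in WT MPPs and 8055 in Bcl11a-/- MPPs, with 2.80% and 5.82% over 2-fold lower. Of 20 ER partner genes, 17 were lower in MPPs in both genotypes, 3 of them over 2-fold in both (Pdia6, Sdf2l1 and Herpud1), and the medians were −0.55 and −0.64 (−0.43 and −0.35 after lowess centring). Named after its values were seen, Pdia6, a disulfide isomerase with an ER stress element in its promoter, read 10.18 (WT) and 10.38 (Bcl11a-/-) in GMPs and 8.44 (WT) and 7.93 (Bcl11a-/-) in MPPs, or −1.75 and −2.45. Sdf2l1, a partner of BiP and Dnajb11, was at −1.52 and −1.77, and Herpud1, of ER-associated degradation, at −1.23 and −1.04. The lectin chaperones were lower by less, Calr at −0.56 and −0.99 and Canx at −0.30 and −0.54. Ddit3, a target of ER stress signalling, was higher in MPPs at 0.29 and 0.36. The 3 ER members with a printed element were at −0.36 to −1.37 in WT, Dnajc3 and Hspa5 past 2-fold and Hsp90b1 within it.

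**Figure D5:**
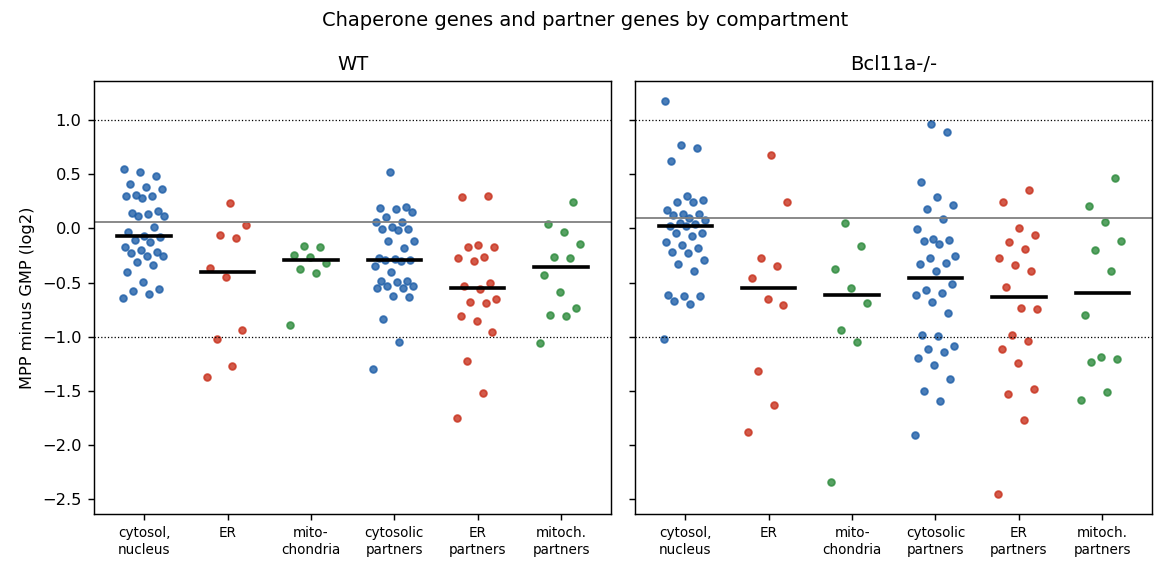
MPP minus GMP difference (y axis, log2) of each member and partner gene by compartment (x axis), WT on the left and Bcl11a-/- on the right. Black bars are medians, the grey line is the median of all genes and dotted lines mark 2-fold. The ER members (medians −0.40 and −0.55) and ER partners (−0.55 and −0.64) lay lower than cytosolic and nuclear members (−0.07 and 0.02). Mitochondrial members (−0.29 and −0.62), mitochondrial partners (−0.35 and −0.59) and cytosolic partners (−0.29 and −0.45) were also below 0.

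Cytosolic and nuclear members had no common direction between populations. Of 35, 13 were lower and 12 higher in MPPs in both genotypes, and the medians were −0.07 in WT (0.03 after lowess centring) and 0.02 in Bcl11a-/- cells. Their partner genes were lower in MPPs, for 24 of 34 in both genotypes, with medians of −0.29 and −0.45, which were −0.13 and −0.30 after lowess centring. Cdc37, which delivers kinases to Hsp90, and Fkbp4, an Hsp90-bound immunophilin, were the 2 over 2-fold lower in both, Cdc37 at −1.30 and −1.90 and Fkbp4 at −1.05 and −1.59. Hsf2, a heat shock factor, was higher in MPPs at 0.52 and 0.96. These partners, too, were named after their values were seen.

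Mitochondrial members were lower in MPPs in both genotypes for 7 of 8, with medians of −0.29 and −0.62. After lowess centring 2 of the 8 were higher in WT MPPs (Hspa9 at 0.01 and Hspe1 at 0.02) and 1 in Bcl11a-/- MPPs (Dnajc30 at 0.17), and with the arrays of a pair quantile normalized anew the medians were −0.14 and −0.43. Of the 12 partner genes 8 were lower in both, with medians of −0.35 and −0.59. Dnajc15 was at −0.89 in WT and −2.34 in Bcl11a-/- cells, and Hspe1 at −0.16 and −1.04 as a gene mean. These genes were thus over 2-fold lower in the Bcl11a-/- pair alone, a difference that was not tested. The 2 Hspe1 probe sets were at −1.36 and −0.73 in that pair. Those of Hspd1, whose mean was lower in both genotypes, were at 0.17 and −0.93 there. Dnajc12, a J protein with a role in the folding of aromatic amino acid hydroxylases, has no compartment assigned here and was over 2-fold lower in both pairs. It read 7.08 (WT) and 6.81 (Bcl11a-/-) in GMPs and 5.82 (WT) and 5.17 (Bcl11a-/-) in MPPs. Its MPP signals were both below both GMP signals, by −1.27 and −1.64, and were under a log2 signal of 6.

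Members known mainly from testis, sperm or muscle, listed as 13 genes, had 0 beyond 2-fold in any of the 4 comparisons. Of all genes, 0.281% to 5.82% were, by comparison and direction. The median differences of the 13 were −0.03 and 0.09 by genotype in GMPs and MPPs. Of all 72 members, 6 were under 5 and 13 were under 6 on every array. Bright genes as a whole were lower in MPPs than in GMPs: the median over genes with a mean signal from 9 to 11 was −0.18 in WT and −0.30 in Bcl11a-/- cells. The 7 markers of GMPs over 2-fold lower in WT MPPs, of 10, and the 6 in Bcl11a-/- MPPs moved with the ER genes. B lineage markers moved in the opposite direction in WT cells (9 of 11 over 2-fold higher in WT MPPs). In the Bcl11a-/- pair 1 of the 11 was over 2-fold higher and 1 lower, with a median of 0.29. The ER median was −0.40 in the WT pair and −0.55 in the Bcl11a-/- pair. The part of these markers in the ER difference was not tested.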

How the data were processed

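RNA of the 4 sorted pools was amplified, biotin-labelled and hybridised to 1-colour oligonucleotide arrays. The authors deposited log2 values, 1 per probe set and array, and report RMA with quantile normalization in ArrayStar (version not stated in the labels or methods). The spread of the deposited values still differed between arrays, as given above. Quantile normalization can hide a change in total mRNA per cell, and scanner files were not used here. The table holds 30177 rows, of which 21789 have 1 gene symbol in the platform annotation, 1621 several and 6767 none. A gene was the mean of the probe sets with its symbol alone, and the 72 members were 64 genes with 1 probe set and 8 with several. No measured column was left unmapped.

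The members, the 18 gene lists and the comparisons were chosen with earlier results of these data known. Named genes were members over 2-fold with genotype at a log2 signal of at least 6, all measured inducible, ER and mitochondrial members, the 6 constitutive members with the largest summed genotype differences, members over 2-fold in both MPP minus GMP comparisons at a signal of at least 6, and partner or immediate early genes over 2-fold with genotype. With 1 array per condition no test was run, and the number of arrays limits the precision. A list was described by its counts and median beside those of all genes. The MPP minus GMP comparisons use the same arrays as the genotype comparisons, so values from them are not independent.

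The 8 alternatives were a signal filter at 6, a floor at 5, median centring, lowess centring (span 0.3), quantile normalization of a pair anew, the brightest probe set of a gene, and thresholds of 1.5-fold and 3-fold. The steps were tested on simulated arrays. Promoters are RefSeq windows of GRCm38.p6 (27025 genes, 300 bases each), and no coordinates are given for probe sets. Python 3.11.15 was used with numpy 2.4.6, pandas 2.3.3, statsmodels 0.14.6 and matplotlib 3.10.9.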

Additional observations from a re-analysis of the deposited data

Results flagged for a closer look

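Dnajb6 differed with genotype in opposite directions in the 2 populations, 1.24 in MPPs (2.36-fold higher in Bcl11a-/- cells) and −0.20 in GMPs, on the probe set under its symbol alone. The difference between the populations was not tested, since each condition has 1 array. The 4 probe sets shared with Gm4247 were lower in Bcl11a-/- cells in both populations.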

How the results depend on the processing

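No paired analysis was possible because each condition has 1 array, and for the same reason no replicate could be left out. Of the 8 alternatives, the signal filter, the floor, median centring, lowess centring and the brightest probe set kept all 8 counts of members within 1.5 times their value, and quantile normalization anew did so except for members lower in Bcl11a-/- MPPs than in Bcl11a-/- GMPs, which were 4. At 1.5-fold, 1 member was higher and 3 lower in Bcl11a-/- GMPs, 2 higher and 9 lower in Bcl11a-/- MPPs, 11 lower in WT MPPs than in WT GMPs, and 7 higher and 17 lower in Bcl11a-/- MPPs than in Bcl11a-/- GMPs. At 3-fold, 0 were higher and 1 lower in Bcl11a-/- MPPs, 0 lower in WT MPPs than in WT GMPs, and 0 higher and 4 lower in Bcl11a-/- MPPs than in Bcl11a-/- GMPs.

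The inducible median was −0.052 with the filter and −0.0636 with the floor in GMPs, and −0.14 with either in MPPs. Lowess centring gave −0.15 for the constitutive and −0.0433 for the ER median with genotype in MPPs, and 0.0325 for the cytosolic and −0.24 for the ER median between WT populations. Quantile normalization anew gave −0.0823 for the constitutive and 0.019 for the ER median with genotype in MPPs, 0.0765 for the cytosolic, −0.16 for the ER and −0.14 for the mitochondrial median between WT populations, and −0.31 for the ER and −0.43 for the mitochondrial median between Bcl11a-/- populations. The cause was not tested. Of the named genes, Hspa9 alone left the 2-fold side in a genotype comparison, at −0.94 with lowess centring and −0.83 with quantile normalization anew.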

Other observations

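Among members with a mean signal of at least 8, the Spearman correlation of genomic span with the genotype difference was 0.19 in MPPs and −0.07 in GMPs over 27 genes. Over all 3106 genes of that signal it was 0.27 and 0.01. With no signal cut-off it was 0.12 in MPPs and 0.0046 in GMPs over the 72 members, and 0.01 and −0.04 over 19853 genes. The points share arrays and depth of signal, and the correlations are descriptions across genes.

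The probe sets shared by Dnajb14 and Pin4, which are not counted among the members, differed by −0.64 in MPPs and by less than 0.01 in GMPs. The probe set shared by Dnaja1 and Mir207 was 0.41 higher in Bcl11a-/- GMPs and 0.22 higher in Bcl11a-/- MPPs.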
